A study of Mus musculus with 12 samples.

Results

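Lysosomal genes were examined in RNA-seq of the mouse ventricular wall, in hearts with and without Sdhaf4, which encodes an assembly factor of mitochondrial complex II. The 38 genes comprised 10 cathepsins and other proteases, 10 glycosidases, 4 sulfatases, 7 lipid hydrolases, activators and carriers, 6 membrane proteins including a channel, and the transcription factor Tfeb. They were taken by symbol from the 43686 rows of the count table. Each symbol had 1 row, and all 38 were among the 17155 rows that passed the filter on low counts. The WT group held 6 Sdhaf4fl/fl littermates without Cre, and the KO group held 6 Sdhaf4fl/fl mice carrying Ckmm-Cre, in which the muscle creatine kinase promoter drives Cre in cardiac and skeletal muscle. Both groups therefore carried the floxed alleles, and the Cre transgene was present in the KO group alone, so its own part and that of the deletion cannot be told apart. The labels call the groups wild type and Sdhaf4-/-, and give the age as postnatal month 2. The main text of the study gives a younger age for the sequenced hearts, and its reporting summary gives a pair of ages for the omics work, of which the older fits the labels.

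The lysosome is an acidic organelle in which hydrolases break down proteins, glycans, sulfated sugars and lipids that arrive by endocytosis or autophagy. A proton pump, the V-ATPase, keeps its interior acidic, heavily glycosylated proteins line its membrane, and the transcription factor TFEB switches on many lysosomal genes through a short promoter element. In heart muscle the pathway is known from inherited defects of GAA and LAMP2, which cause cardiac disease with stored glycogen.

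Library totals ran from 23747014 to 27159228 counts in WT and from 26542930 to 31393393 in KO. The targeted gene, Sdhaf4, was at 25.2 ± 5.8 CPM (read counts scaled to library size with TMM factors; mean ± SD, n = 6) in WT and at 2.40 ± 0.170 CPM (n = 6) in KO, with no overlap (log2 fold change -3.39, edgeR adjusted p = 1.95e-10). Cardiomyocyte markers summed to at least 42179 CPM in every library. Earlier results of these data had set WT replicate 6 and KO replicate 3 apart. WT replicate 6 had the lowest Sdhaf4 of its group, at 14.3 CPM, and KO replicate 3 the highest sum of cardiomyocyte markers, at 58406 CPM against 42179 to 48180 CPM in the other KO libraries. Without both libraries 15 members were higher and 12 lower in KO.

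Lysosomal transcripts moved in both directions in the KO hearts. By edgeR's quasi-likelihood test, at an adjusted p under 0.05 over all rows, 16 of the 38 members were higher in KO, 12 were lower and 10 were not called. Of all rows tested, 25.6% were higher, 25.5% were lower and 51.1% were called either way, against 42.1%, 31.6% and 73.7% of the members. The difference between these shares was not tested. The median log2 fold change of the members was 0.10, beside 0.002 over all rows, and their fold changes ran from -0.73 (Ctsh) to 1.22 (Ctsk).

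A single member, Ctsk, also passed the study's stricter threshold, which asks for a change of more than 1 on the log2 scale in either direction and an adjusted p under 0.005. Of all rows, 5.36% passed it as higher and 4.87% as lower. The median absolute log2 fold change was 0.25 among the members and 0.30 over all rows. In 9 of the 38 members every KO library lay above every WT library, beside 14.9% of all rows. In 8 of the 38 every KO library lay below, beside 15.2% of all rows. The difference between these shares was not tested either.

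**Figure D1:**
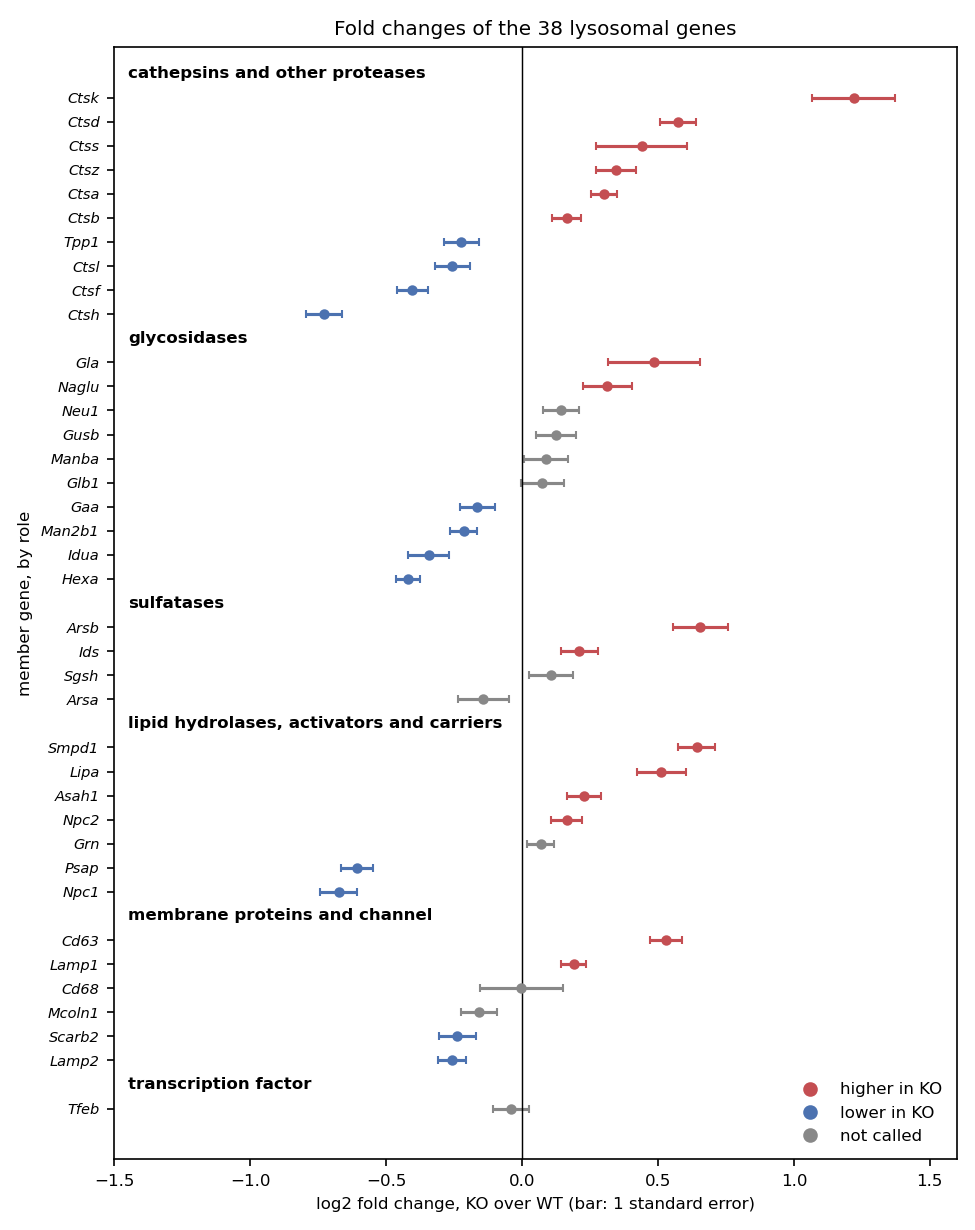
Log2 fold change (KO over WT, x axis) of each of the 38 genes, grouped by role, with 1 standard error as the bar and the edgeR call as the colour. Every role group with more than 1 member except the sulfatases held genes called in both directions, and Ctsk at 1.22 and Ctsh at -0.73 marked the ends of the range.

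The proteases were split most widely. All 10 were called, 6 as higher and 4 as lower in KO, where 51.1% of all rows were called either way. Ctsk, a cysteine protease known for cutting collagen (MGP_C57BL6NJ_G0028004, chromosome 3, 99797787 to 99809616 on the C57BL/6NJ assembly), ran from 6.90 to 11.8 CPM in WT, with a median of 10.9, and from 17.7 to 30.3 CPM in KO, with a median of 23.8. The groups did not overlap. The KO values spread more widely in CPM (SD 5.02, against 1.91 in WT). Relative to the mean the SD was similar, at 21.1% in KO and 18.7% in WT. The log2 fold change was 1.22 (SE 0.152, edgeR adjusted p = 9.43e-06), a 2.33-fold rise.

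Ctsh, an aminopeptidase (MGP_C57BL6NJ_G0035613, chromosome 9, 93523495 to 93544965), moved the other way and had the smallest p among the proteases. It ran from 57.3 to 70.6 CPM in WT, with a median of 63.2, and from 33.4 to 43.7 CPM in KO, with a median of 37.1. All KO libraries lay below all WT libraries, with a log2 fold change of -0.73 (SE 0.067, edgeR adjusted p = 1.25e-07).

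Ctsd, the main aspartic protease of the lysosome, ran from 869 to 1042 CPM in WT, with a median of 918.2, and from 1305 to 1633 CPM in KO, with a median of 1343. The groups did not overlap, and KO replicate 6 lay well above the other KO libraries. The log2 fold change was 0.57 (edgeR adjusted p = 1.6e-06), and 0.52 to 0.60 with any 1 library left out.

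The other proteases moved less. Higher in KO were Ctss, which cuts the invariant chain in antigen-presenting cells (log2 fold change 0.44), the carboxypeptidase Ctsz (0.35), the serine carboxypeptidase Ctsa (0.30) and the cysteine protease Ctsb (0.16). Lower were the cysteine proteases Ctsf (-0.40) and Ctsl (-0.26) and the tripeptidyl peptidase Tpp1 (-0.22). Every KO library lay apart from every WT library in Ctsz, Ctsa and Ctsf, while the groups overlapped in Ctss, Ctsb, Ctsl and Tpp1. The call of Ctss (edgeR adjusted p = 0.0425) was lost when WT replicate 1, 2, 3, 5 or 6 or KO replicate 1, 3 or 4 was left out, with adjusted p up to 0.0947. The call of Ctsb (edgeR adjusted p = 0.0179) was lost without WT replicate 3 or 5, with adjusted p up to 0.0589.

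**Figure D2:**
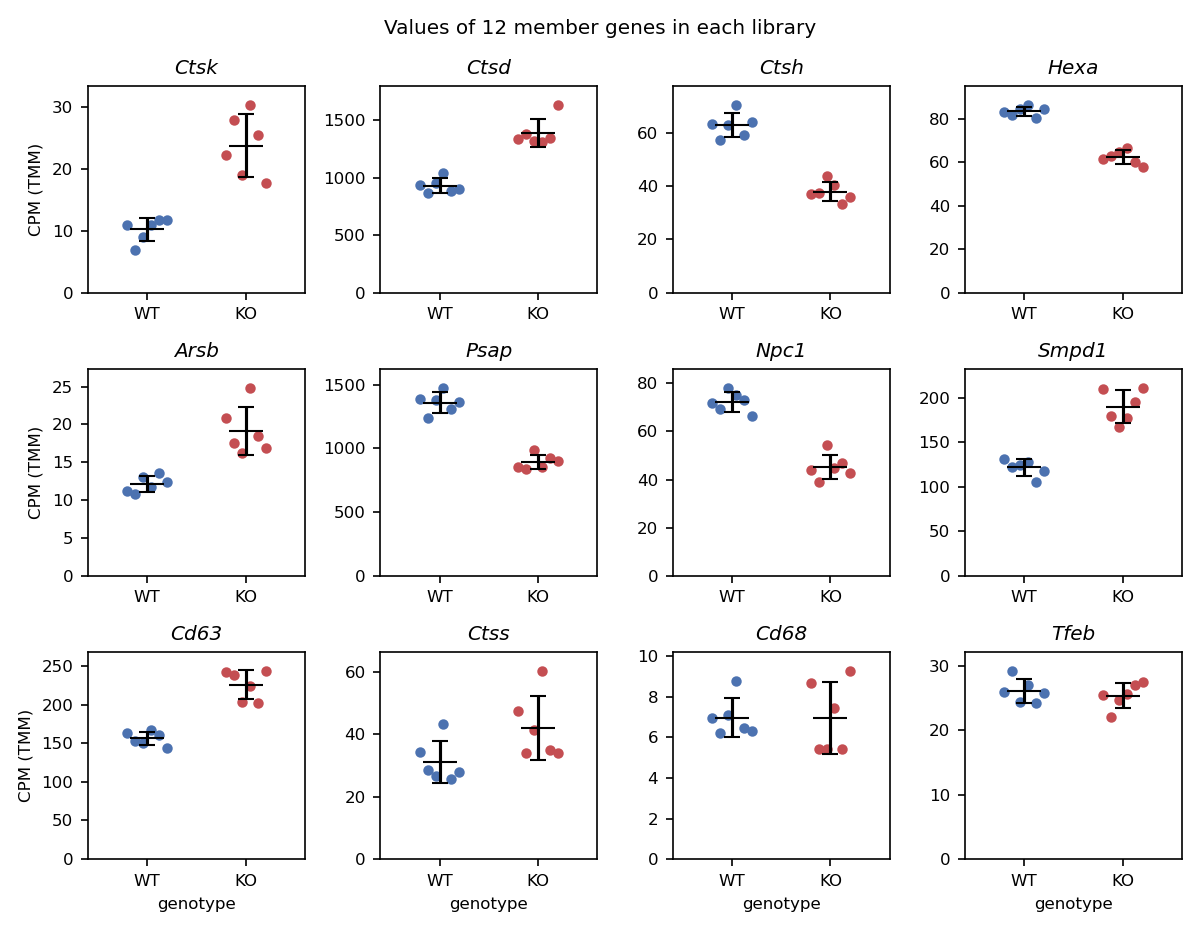
CPM (y axis, from 0) of 12 genes in each WT and KO library (points), with the mean and SD of each genotype as the bar and whiskers (n = 6). The genotypes were fully separated in Ctsk, Ctsd, Ctsh, Hexa, Arsb, Psap, Npc1, Smpd1 and Cd63 and overlapped in Ctss, Cd68 and Tfeb.

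Among the glycosidases, which remove sugars from glycoproteins, glycolipids and glycogen, 4 were lower in KO, 2 were higher and 4 were not called. Hexa, the alpha subunit of beta-hexosaminidase A (MGP_C57BL6NJ_G0035393, chromosome 9, 60520313 to 60545717), had the smallest p. It ran from 80.6 to 86.5 CPM in WT, with a median of 83.9, and from 57.9 to 66.7 CPM in KO, with a median of 62.2. All KO libraries lay below all WT libraries, at a log2 fold change of -0.42 (SE 0.044, edgeR adjusted p = 6.58e-07).

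Idua, which acts on dermatan and heparan sulfate, fell by 0.34 on the log2 scale and the alpha-mannosidase Man2b1 fell by 0.21, both without overlap of the groups. Gaa, which digests glycogen in the lysosome, had a log2 fold change of -0.16 with overlapping groups (113.7 to 134.6 CPM in WT, 99.96 to 133.5 CPM in KO). Its call (edgeR adjusted p = 0.0438) was lost in 10 of the 12 fits without 1 library, all but those without WT replicate 2 and without KO replicate 6, with adjusted p up to 0.0985.

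The rises were in Naglu, of heparan sulfate breakdown (log2 fold change 0.31), and in Gla, the alpha-galactosidase (0.49). Gla was the lowest of the members, at 2.94 ± 0.755 CPM in WT and 4.12 ± 0.58 CPM in KO (n = 6 each). Its call (edgeR adjusted p = 0.0228) was lost without WT replicate 2, 4 or 5, with adjusted p up to 0.056. The sialidase Neu1 (log2 fold change 0.14, edgeR adjusted p = 0.0809), the beta-glucuronidase Gusb (0.13), the beta-mannosidase Manba (0.09) and the beta-galactosidase Glb1 (0.08) were not called. Without KO replicate 4, Neu1 was called at an adjusted p of 0.0161.

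The sulfatases remove sulfate from glycosaminoglycans and lipids. Arsb, which acts on dermatan sulfate (MGP_C57BL6NJ_G0021216, chromosome 13, 98046619 to 98239445), ran from 10.8 to 13.6 CPM in WT, with a median of 12.1, and from 16.2 to 24.8 CPM in KO, with a median of 18.0. Every KO library lay above every WT library, at a log2 fold change of 0.66 (SE 0.101, edgeR adjusted p = 4.14e-05). Ids, the iduronate sulfatase, rose by 0.21 on the log2 scale with overlapping groups, since KO replicate 6 lay within the WT range. Sgsh (log2 fold change 0.11) and Arsa, which acts on sulfatides (-0.14), were not called.

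The genes of lipid breakdown held rises and falls of similar size. Psap, the precursor of the saposins that present sphingolipids to their hydrolases (MGP_C57BL6NJ_G0017663, chromosome 10, 61635263 to 61662264), ran from 1234 to 1473 CPM in WT, with a median of 1371, and from 838.3 to 986.0 CPM in KO, with a median of 875.4. The groups did not overlap, and the log2 fold change was -0.61 (SE 0.059, edgeR adjusted p = 2.36e-07). Npc1, the membrane transporter of cholesterol, ran from 66.4 to 78.0 CPM in WT and from 38.8 to 54.2 CPM in KO (log2 fold change -0.68, edgeR adjusted p = 4.07e-07). Npc2, the soluble carrier that hands cholesterol to NPC1, had a log2 fold change of 0.16 with overlapping groups. Its call (edgeR adjusted p = 0.0203) was lost without WT replicate 5 or KO replicate 1, with adjusted p up to 0.0539.

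Smpd1, the acid sphingomyelinase, ran from 105.3 to 131.3 CPM in WT and from 166.5 to 210.7 CPM in KO (log2 fold change 0.64, edgeR adjusted p = 5.97e-07), with no overlap. Lipa, the acid lipase of cholesteryl esters and triglycerides, rose by 0.51 on the log2 scale without overlap, and the acid ceramidase Asah1 rose by 0.23 with overlap. Grn, the progranulin gene, was not called (0.07).

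Of the membrane proteins, 2 were higher, 2 were lower and 2 were not called. The tetraspanin Cd63 (MGP_C57BL6NJ_G0018282, chromosome 10, 137182098 to 137185993) ran from 144.2 to 166.8 CPM in WT, with a median of 156.9, and from 202.8 to 243.4 CPM in KO, with a median of 231.2. The groups did not overlap, at a log2 fold change of 0.53 (SE 0.059, edgeR adjusted p = 1.1e-06). The related LAMP proteins of the lysosomal membrane went apart: Lamp1 rose by 0.19 and Lamp2 fell by 0.26 on the log2 scale, each without overlap. Scarb2, the receptor that carries glucocerebrosidase to lysosomes, fell by 0.24.

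Mcoln1, a calcium channel of the lysosome, had a log2 fold change of -0.16 and missed the threshold (edgeR adjusted p = 0.0519). It passed without WT replicate 2 or 6 or KO replicate 3 or 6, with adjusted p from 0.015. Cd68, a membrane protein abundant in macrophages, ran from 6.21 to 8.78 CPM in WT and from 5.43 to 9.26 CPM in KO. The WT range lay within the KO range, at a log2 fold change of -0.003 (edgeR adjusted p = 0.988).

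Tfeb itself (MGP_C57BL6NJ_G0024263, chromosome 17, 50995120 to 51060064) ran from 24.2 to 29.1 CPM in WT, with a median of 25.8, and from 22.0 to 27.4 CPM in KO, with a median of 25.5. The groups overlapped, and the log2 fold change was -0.04 (SE 0.066, edgeR adjusted p = 0.638). Transcript levels carry no reading of where the TFEB protein was in the cell.

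The element that TFEB binds contains the letters CACGTG, and this hexamer was searched for in the RefSeq promoter windows of GRCm38.p6, each from 250 bases before to 50 bases after an annotated start. CACGTG equals its own reverse complement, so both strands were searched at once. Windows were found for 34 of the 38 members, not for Asah1, Npc1, Ctsb and Ctsh. CACGTG was present in 12 of these 34 members (35.3%), in 8.09% of all 27025 symbols with a window, and in 11.5% of the 9766 of these symbols that were tested here. Tested rows without a window were not searched. The longer TCACGTGA, which contains CACGTG and is also its own reverse complement, was present in 4 of the 34 members, in 1.125% of all symbols and in 2.03% of those tested. The runs below show the hexamer in capitals in genes called higher (Lamp1, Gla, Ctsd), lower (Ctsf, Ctsl) and not called (Mcoln1), read along the gene's strand from 5′ to 3′.
Lamp1 (chr8:13159088-13159160, plus strand): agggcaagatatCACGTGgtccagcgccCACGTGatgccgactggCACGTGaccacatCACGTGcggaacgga
Gla (chrX:134601182-134601244, minus strand): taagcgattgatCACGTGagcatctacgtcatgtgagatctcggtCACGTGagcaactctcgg
Ctsd (chr7:142387908-142387937, minus strand): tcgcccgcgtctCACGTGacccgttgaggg
Ctsf (chr19:4855074-4855103, plus strand): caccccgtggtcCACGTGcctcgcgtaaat
Ctsl (chr13:64370739-64370768, minus strand): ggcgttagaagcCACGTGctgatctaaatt
Mcoln1 (chr8:3500436-3500491, plus strand): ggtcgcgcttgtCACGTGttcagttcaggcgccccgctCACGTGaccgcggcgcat

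The Lamp1 run held 4 matches between 61 and 10 bases before the start, the most of any member. By call, CACGTG was in 5 of 14 members higher in KO with a window, in 3 of 10 lower and in 4 of 10 not called. The longer TCACGTGA was in 3 of the 14, in 0 of the 10 lower and in 1 of the 10 not called. Neither split was tested. A match of letters is a description and shows no binding.

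Levels can be set between genes only per length, for which the deposited FPKM (reads over library size and over a gene length) were used. In WT the FPKM level was highest for Ctsd (683.3 ± 41.3, n = 6), followed by Psap (515.6 ± 28.8), Ctsl (202.0 ± 13.2), Lamp1 (172.3 ± 5.54) and Cd63 (170.0 ± 7.58). Lamp1 and Cd63 overlapped between libraries and the others of these neighbours did not. At the low end were Arsb (3.04 ± 0.244) and Gla (1.67 ± 0.422), which did not overlap, and the highest member stood 409-fold above the lowest. From Asah1 down to Sgsh, neighbours in the order overlapped except Npc2 with Mcoln1 and Idua with Naglu.

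The FPKM rest on a gene length that is not the length column of the table. For the members the FPKM were 1.00 to 3.01 times the value that count, total and length column give, a factor equal in all libraries of a gene, and 14 members had a factor within 0.01 of 1. Scaled by the length column, Psap led in WT (510.9 against 437.5 CPM per kb for Ctsd), so the order of these genes depends on the length, and Ctsd led in KO on both scales. Of the 38 members, 28 were within 3 ranks of their place in the FPKM order.

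**Figure D3:**
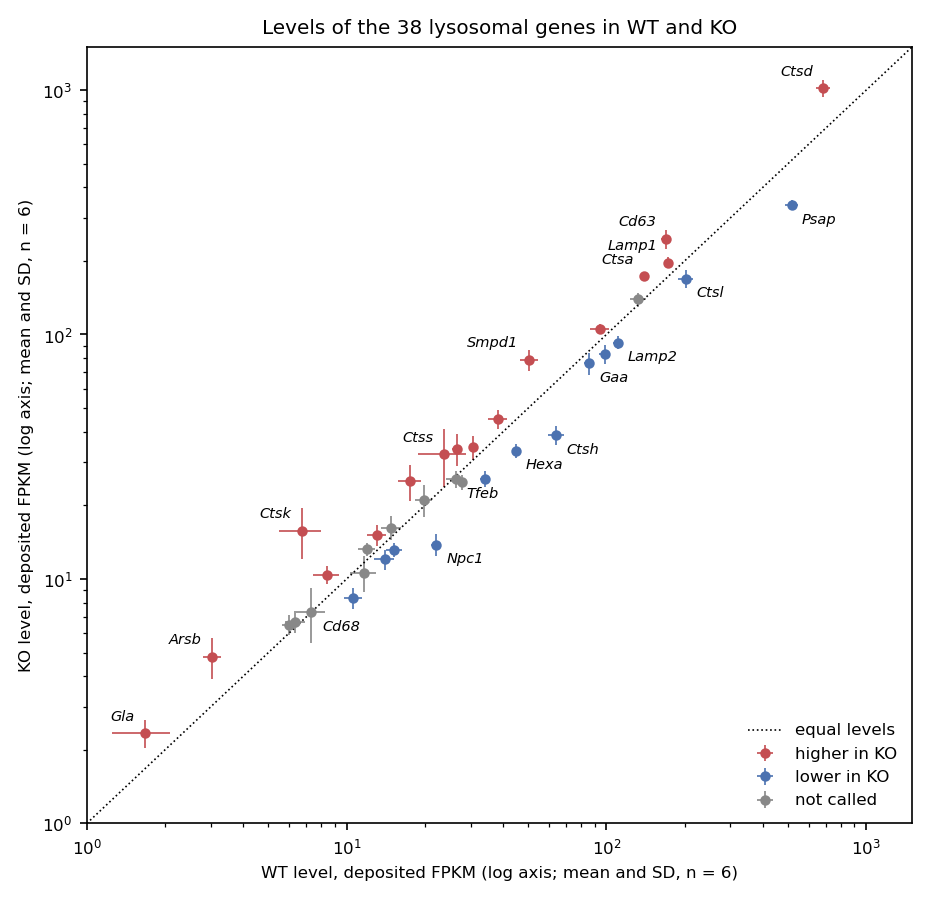
Deposited FPKM of each of the 38 genes in WT (x axis) and KO (y axis), both on log axes, as mean and SD of 6 libraries, with the dotted line at equal levels and the edgeR call as the colour. Called genes sat on both sides of the line at high levels (Ctsd above, Psap below) and at lower levels (Ctsk above, Npc1 below).

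Ratios between members within a library show the opposed movements without any scaling between libraries. These pairs were chosen after their values were seen and are given with no test. Where 1 gene rose and the other fell, each without overlap, a separated ratio follows from the values above. The FPKM ratio of Ctsd to Psap was 1.28 to 1.37 in the WT libraries and 2.58 to 3.52 in the KO libraries. That of Ctsk to Ctsh was 0.0783 to 0.129 in WT and 0.281 to 0.495 in KO.

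Other ratios were separated as well, but that of Ctsk to Ctss overlapped (0.209 to 0.396 in WT, 0.393 to 0.705 in KO). Npc2 to Npc1 was 1.33 to 1.48 in WT and 1.86 to 2.82 in KO, and Lamp1 to Lamp2 was 1.39 to 1.68 in WT and 1.95 to 2.28 in KO. The summed CPM of the 38 members was 5479 to 6182 in WT and 5697 to 6059 in KO, so the groups overlapped in the total while its composition differed. In bulk tissue, fewer cells of a type and less RNA per cell cannot be told apart.

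Lysosomal genes are expressed by many cells of the heart, and markers of other cell types were followed beside them. The marker counts stand beside 25.6% of all rows called higher and 25.5% called lower. Of 9 fibroblast markers, 8 were higher in KO and 1 was lower, and their summed CPM was 1550 to 1811 in WT and 2650 to 4974 in KO. Ctsk was lowest among the KO libraries in KO replicate 6 (17.7 CPM) and KO replicate 3 (18.9 CPM), the libraries with the lowest KO fibroblast sums (2650 and 3005 CPM). KO replicate 4 had the highest Ctsk (30.3 CPM), at a fibroblast sum of 4968 CPM. KO replicate 1 had the highest fibroblast sum (4974 CPM) but 22.2 CPM of Ctsk. KO replicates 2 (sum 4021 CPM) and 5 (sum 3955 CPM) held more Ctsk, at 28.0 and 25.4 CPM. The part of fibroblast RNA in the rise of Ctsk was not tested.

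Of 14 myeloid markers tested, 1 was higher and 2 were lower, and their sum overlapped between WT (336.9 to 466.2 CPM) and KO (335.9 to 513.3 CPM). Itgam had no counts, and Lyz2 was not analysed here. Ctss was highest in the library of each genotype with the highest myeloid sum, WT replicate 4 (43.3 CPM) and KO replicate 4 (60.3 CPM). The part of myeloid RNA in the value of Ctss was not tested.

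Cardiomyocyte markers (9 tested) gave 1 higher and 4 lower, with sums of 48529 to 53936 CPM in WT and 42179 to 58406 CPM in KO. Endothelial markers (8 tested) gave 4 higher and 2 lower, with sums of 1504 to 1693 CPM in WT and 1557 to 1872 CPM in KO. Smooth muscle and pericyte markers (8 tested) gave 2 higher and 3 lower, with sums of 1738 to 1921 CPM in WT and 1583 to 2111 CPM in KO. The ranges of these sums overlapped between the genotypes, for the first 2 lists through KO replicate 3 alone (58406 and 1557 CPM). The other KO libraries lay below every WT library in the cardiomyocyte sum (42179 to 48180 CPM). They lay above every WT library in the endothelial sum (1695 to 1872 CPM). In the smooth muscle and pericyte sum, KO replicates 3 and 6 (1583 and 1614 CPM) lay below every WT library. The other KO libraries (1923 to 2111 CPM) lay above. The part of these sums in the member values was not tested.

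Of 4 atrial markers, Myl7 and Sln did not pass the filter on low counts. The 2 tested, Nr2f2 and Myl4, were both higher, with sums of 18.1 to 20.1 CPM in WT and 27.0 to 35.9 CPM in KO. Most of the sum was Nr2f2 (mean 17.2 CPM in WT, 28.0 CPM in KO) rather than Myl4 (2.12 and 3.49 CPM), so it mainly followed 1 gene. Lymphocyte markers (6 tested) gave 1 higher, at sums of 2.56 to 5.46 CPM in WT and 3.31 to 7.18 CPM in KO. The 2 erythroid markers tested were not called and their sums overlapped.

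**Figure D4:**
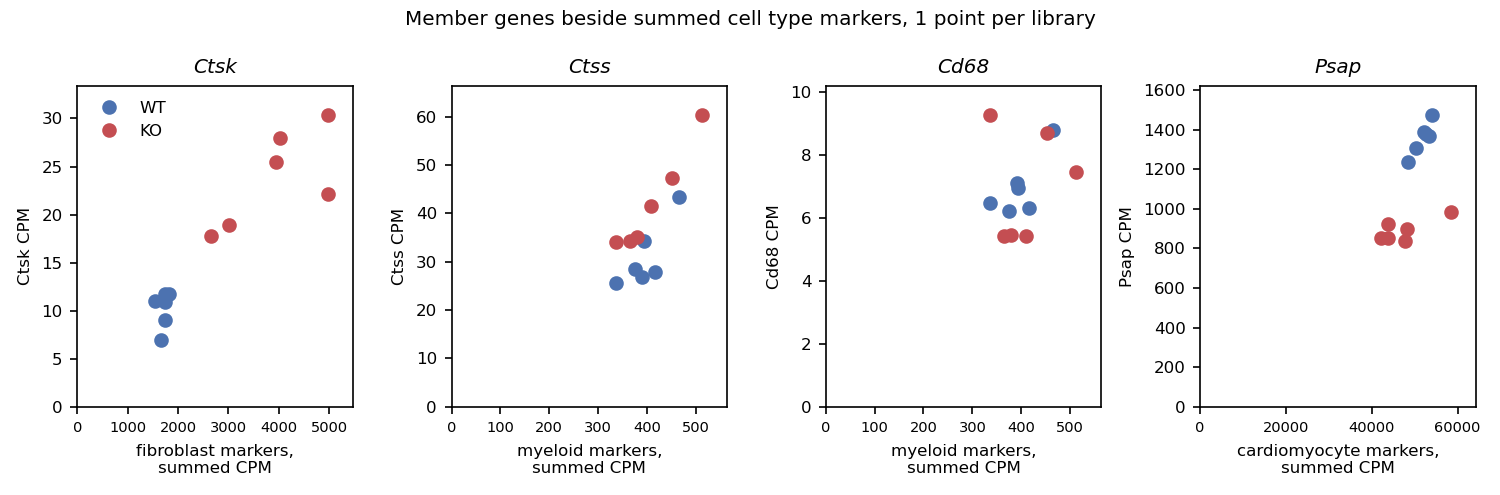
CPM of Ctsk, Ctss, Cd68 and Psap (y axes) against the summed CPM of fibroblast, myeloid or cardiomyocyte markers (x axes), with 1 point per library and the genotype as the colour. The KO libraries stood apart in both the fibroblast sum (2650 to 4974 CPM) and Ctsk, and overlapped the WT libraries in the myeloid sum.

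Lists of other lysosomal and autophagy genes were counted in the same fit, in which 25.6% of all rows were higher and 25.5% lower. The difference of the list counts from these shares was not tested. Of 42 other lysosomal genes tested, 10 were higher and 13 were lower, with a median log2 fold change of -0.02. Among them Galns, another sulfatase (3.40 ± 0.671 CPM in WT, 8.40 ± 1.70 CPM in KO, log2 fold change 1.31), and Sumf1, the enzyme that activates sulfatases (0.61), were higher. Gnptab, which makes the mannose phosphate tag that sorts hydrolases to lysosomes (-0.64), and Slc38a9, an amino acid sensor of the lysosomal membrane (-0.53), were lower.

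Of 19 V-ATPase subunits tested, 9 were higher and 1 was lower, with a median of 0.16. Atp6v1b2 (log2 fold change 0.83) and Atp6v1a (0.43), subunits of the catalytic head, were higher, and Atp6v0a2 (-0.20), of the membrane sector, was lower. Their summed CPM did not overlap, at 1027 to 1114 in WT and 1186 to 1270 in KO.

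Of 30 genes of the TFEB family and of mTORC1 control at the lysosome, 6 were higher and 12 were lower, with a median of -0.03. Mtor (log2 fold change 0.62) and Lamtor3 (0.48) were higher, and Tsc1 (-0.42) and Lamtor4 (-0.39) were lower. Of 42 autophagosome genes, 8 were higher and 20 were lower, with a median of -0.15. Map1lc3b was also on that list but had no row under its symbol. Atg101 (0.92) and Atg4a (0.71) were higher, and Atg10 (-0.75) and Uvrag (-0.56) were lower.

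**Figure D5:**
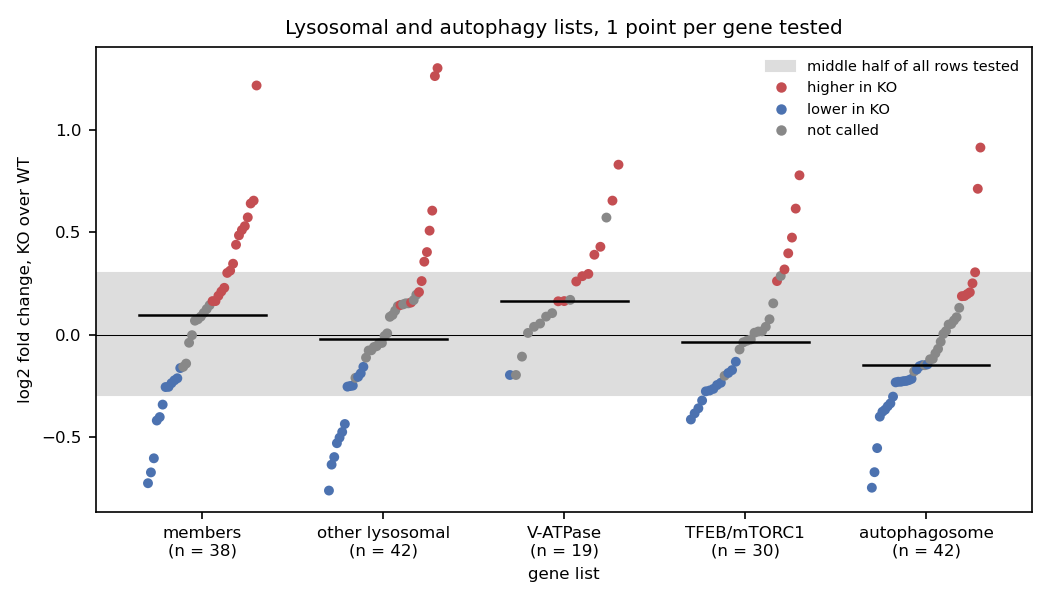
Log2 fold change (y axis, KO over WT) of each tested gene in the 38 members and the 4 lists (x axis), sorted within a list, with the median as the black line, the edgeR call as the colour and the range between the quartiles of all rows tested (-0.30 to 0.30) as the grey band. Medians ran from -0.15 for the autophagosome list to 0.16 for the V-ATPase subunits.

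Whether reads were counted by strand is not given in the sources used here, and genes that overlap in position may share reads. Ctsa overlapped Neurl2 and Pltp, Ctsb overlapped Fdft1, Ctsd overlapped Ifitm10, Ctsz overlapped Nelfcd, Idua overlapped Dgkq, Glb1 overlapped Tmppe, Grn overlapped Fam171a2, Sgsh overlapped Card14 and Npc1 overlapped 3110002H16Rik. Idua also overlapped Slc26a1, and Manba, Arsa, Arsb, Scarb2 and Npc1 overlapped rows without a gene symbol. The values of all these members are uncertain to that extent.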

How the data were processed

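RNA from the ventricular wall of 6 WT and 6 KO mice was sequenced after poly-T purification of mRNA. The authors counted reads per gene with HTSeq and deposited raw counts, together with FPKM per library. The submitters' processing notes name HISAT2 2.0.5 and mm10, whereas the row identifiers are of the C57BL/6NJ annotation, so gene coordinates are given on that assembly and promoter coordinates on GRCm38.p6, and the 2 were not combined. The deposited FPKM were used for levels between genes. The table also holds the authors' own comparison (fold changes and p-values), which was not used.

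Counts were filtered with filterByExpr, normalized by TMM and tested with the quasi-likelihood test of edgeR 4.0.16 in R 4.3.3 (robust dispersions, Benjamini-Hochberg adjustment over 17155 rows). The standard error of a fold change is its size divided by the square root of the test's F. Alternatives used DESeq2 1.42.0, limma 3.58.1, other normalizations and filters, a replicate block, and left-out libraries. CPM over the length column was added after seeing the data. On simulated data the test recovered fewer changed genes than first required, with most misses among the smaller fold changes, and the requirement was then relaxed. All 12 libraries counted as separate replicates, since any 2 of a genotype differed by a chi-square of at least 7.41 per degree of freedom.

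The members and gene lists were chosen with earlier results of these data known. Named in full are members past both thresholds, the smallest p of each role, and Tfeb. Of each list, the 2 smallest p in each direction with a mean of at least 5 CPM are named. Ctsd, Npc1, Smpd1 and Cd68 were given in more detail after their values were seen.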

Additional observations from a re-analysis of the deposited data

Results flagged for a closer look

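A single library lay far from the rest of its genotype, by Dixon's criterion at 95% for 6 samples, in 6 of the 78 groups tested, of which chance gives about 3.9. KO replicate 6 had 1633 CPM of Ctsd, against 1305 to 1376 CPM in the other KO libraries. KO replicate 4 had 24.43 CPM of Neu1, against 28.9 to 31.1 CPM. KO replicate 6 had 35.68 CPM of Ids, against 43.4 to 45.6 CPM. KO replicate 3 had 342.7 CPM of Scarb2, against 259.1 to 281.4 CPM. WT replicate 4 had 8.785 CPM of Cd68, against 6.21 to 7.12 CPM in the other WT libraries. KO replicate 1 had 2.73 CPM of Sdhaf4, against 2.25 to 2.41 CPM in the other KO libraries.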

How the results depend on the processing

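Across 24 alternatives, 23 of the 28 called members were called in the same direction in every fit, and 8 of the 10 uncalled members were called in none. The exceptions were Ctsb, Ctss, Gaa, Gla and Npc2, which lost their calls in some fits, Mcoln1 and Neu1, which gained them in some, and Cd68, which was never called and changed sign. The log2 fold change of Cd68 (-0.003) was 0.001 with library size alone, 0.001 with a minimum mean of 1 CPM and 0.024 without both WT replicate 6 and KO replicate 3, and -0.104 to 0.066 with 1 library left out. The count of V-ATPase subunits lower in KO (1) was 2 with library size alone, without both of those libraries, without unannotated loci and by limma on log2(FPKM + 1), and 1 to 2 with 1 library left out, being 2 without WT replicate 1, WT replicate 6 or KO replicate 3. The cause was not tested. With 1 library left out, 12 to 16 members were higher and 11 to 13 lower. The deposited FPKM put the mean of Ctsd at 1.33 times that of Psap in WT, and the length column at 0.856 times.

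Over all rows tested, the replicate numbers gave no sign of pairing the libraries. Same-numbered libraries had correlations of -0.162 to 0.0243 between their deviations. Of 6 WT libraries, 1 was closest to the KO library of its number. A pairing with a small effect, or in few genes, could be missed in this way. With a replicate block, 16 members were higher and 11 lower, and Gaa alone lost its call (log2 fold change -0.169, edgeR adjusted p = 0.0554). Ctss kept its call with the block, at an edgeR adjusted p of 0.000162 against 0.0425 without it.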

Other observations

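The libraries that held the extreme values of the called members were counted. WT replicate 4 held the highest WT value of 7 of the 16 members higher in KO and of 6 of the 12 lower members. KO replicate 6 held the highest KO value of 6 of the 16 and the lowest of 5, and KO replicate 3 held the highest KO value of 5 of the 12 lower members.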
